A study of Homo sapiens with 17 samples.

Results

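In HCC1954 cells, 7873 stretches of acetylated chromatin lay away from annotated gene ends and carried the histone variant H2A.Z (written H2AZ, as in the labels) in every library in which it was profiled. They were found by merging the H3K27ac peaks of 4 libraries on the 22 autosomes into 50200 regions. A region was kept when it had a peak in all 4 H3K27ac lists, lay over 2.5 kb from both ends of every protein-coding and lncRNA gene of RefSeq (hg38), and was overlapped by a peak in all 4 H2AZ lists. The 7873 regions were 15.7% of all merged regions, 24.1% of the 32603 regions present in all 4 H3K27ac lists, and 43.3% of the 18194 of those that were distal. The regions were thus chosen by the measured H3K27ac and H2AZ peaks, whose presence at them is a description and not a result.

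HCC1954 is an established breast cancer line labelled as HER2-positive. All cells, of this 1 line, were transfected with antisense oligonucleotides and fixed 72 hours later, and they fall into the arm labelled Si1235 and the arm labelled NC1235. LINC01235, a long non-coding RNA, is named in the title of the series, but the labels give neither the targets of the oligonucleotides nor a sample without transfection. Each arm had 2 libraries of H3K27ac, H2AZ and H3K36me3 and 1 of H3K9ac, and 1 ChIRP library carries the name NC1235. ChIRP recovers DNA bound near a chosen RNA, and the captured RNA is not named by the labels. Separate cultures are not stated for the replicates, so p-values cover the spread of libraries that may be technical repeats.

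Enhancers are stretches of DNA away from gene starts that bind transcription factors and raise the transcription of genes nearby. Active ones carry nucleosomes acetylated at H3K27, a mark placed by the acetyltransferase CBP and its paralogue, and often at H3K9. H2A.Z replaces the ordinary histone H2A in nucleosomes next to open DNA at promoters and enhancers and is exchanged by dedicated remodelling complexes. H3K36me3 is laid down behind elongating polymerase by SETD2 and marks the bodies of transcribed genes, where H2A.Z is usually scarce.

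The lists held 43301 to 46731 autosomal peaks for H3K27ac, 40955 to 48980 for H2AZ, 65432 to 79162 for H3K36me3, 58093 to 58189 for H3K9ac and 122190 for ChIRP. They give no read counts, so depth is unknown and a missing peak may reflect low coverage. The pileups behind the deposited values came out as whole reads in 100% of solved peaks in 13 lists, and in 0.733% and 12.5% of them in NC1235 H3K27ac replicates 1 and 2. These 2 lists were taken as scaled, and for H3K27ac this cannot be told apart from the arm. In both H3K9ac lists the peak names spell another residue of H3 than the labels do; they are called H3K9ac after the labels. Gene ends with an H3K27ac region in all 4 lists were present at 25 of 28 luminal and epithelial genes and 23 of 28 basal genes, against 9 of 20 mesenchymal, 5 of 16 immune and 3 of 11 endothelial genes. ERBB2, which encodes HER2, had 3 such regions in or within 2.5 kb of it. VIM, the mesenchymal gene of the filament protein vimentin, had none.

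Some of the regions lay at gene starts inside longer genes, which distance from the outer gene ends does not remove. The RefSeq promoter table lists several starts a gene. Of the 7418 regions on the chromosomes for which it was used, 505 held an annotated start and 654 (8.82%) lay within 2.5 kb of one. The corresponding share was 2.54% at distal H3K27ac regions without an H2AZ peak in any list. A further annotation limit is that 595 of the 7873 regions (7.56%) lay within 2.5 kb of the end of a gene of another kind, such as a pseudogene or a small RNA gene.

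The 150 bases before the start are shown for the 4 regions at such internal starts with the highest deposited H2AZ fold enrichment at protein-coding genes (RefSeq, GRCh38.p14). Capitals mark CG dinucleotides, which number 22, 12, 11 and 17.
CHD1L, chr1:147242534-147242683, plus strand: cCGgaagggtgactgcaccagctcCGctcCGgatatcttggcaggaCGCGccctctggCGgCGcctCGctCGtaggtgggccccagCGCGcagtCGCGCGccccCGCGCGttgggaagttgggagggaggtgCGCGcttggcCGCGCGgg
ZNF782, chr9:96854515-96854664, minus strand: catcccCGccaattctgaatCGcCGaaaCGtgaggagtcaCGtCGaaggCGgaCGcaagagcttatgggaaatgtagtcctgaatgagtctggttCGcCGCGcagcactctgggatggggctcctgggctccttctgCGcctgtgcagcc
CATSPERE, chr1:244461123-244461272, plus strand: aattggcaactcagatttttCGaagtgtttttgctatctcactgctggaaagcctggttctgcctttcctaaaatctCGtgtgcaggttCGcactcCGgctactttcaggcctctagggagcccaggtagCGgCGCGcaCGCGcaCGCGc
ACAT1, chr11:108121417-108121566, plus strand: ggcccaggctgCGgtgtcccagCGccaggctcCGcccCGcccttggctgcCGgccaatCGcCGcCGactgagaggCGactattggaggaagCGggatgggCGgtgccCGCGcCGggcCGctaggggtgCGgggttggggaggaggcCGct

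These starts lay 53078, 38350, 10031 and 4862 bp from the nearer outer end of CHD1L, ZNF782, CATSPERE and ACAT1. CHD1L encodes a chromatin remodeller and ACAT1 a mitochondrial acetyl-CoA acetyltransferase. At the CHD1L region (chr1:147242186-147244359) the deposited H2AZ fold enrichment was 70.1 and 57.3 in Si1235 replicates 1 and 2, against 59.4 and 43.7 in NC1235 replicates 1 and 2. At the ACAT1 region (chr11:108121233-108122244) it was 39.7 and 34.1 in Si1235, against 45.0 and 37.6 in NC1235. Fold enrichment is the authors' own value for each peak and ranks peaks only within a list. The H3K9ac peaks covered 100% of the CHD1L, ZNF782 and ACAT1 regions in both arms.

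The 644 promoter windows (250 bases before to 50 after the start) whose start lay in one of the regions held a median of 23 CG dinucleotides, against 14 over all 33725 autosomal windows of the table. The motif GCCNNNGGC of the AP-2 factors, searched on both strands, was in 31.1% of these windows and in 23.3% of all windows. The motif TGANTCA of AP-1 was in 8.23% against 7.67%, and GATAA of the GATA factors in 16.6% against 22.8%. A match is only a description, and the difference in GC content, with a median of 64.0% against 58.7%, moves with the motif shares; its part in them was not tested.

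Some of the regions also held primary microRNA hairpins. RefSeq places 15 hairpins wholly or partly in 14 of them. Mature sequences are given for 4 of the microRNAs, with the seed (bases 2 to 8), which pairs with target messages, in capitals; these were chosen after the values were seen, as the ones whose neighbourhood is described below. No seed among the 4 is shared.
hsa-miR-193a-3p: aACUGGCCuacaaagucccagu
hsa-miR-365a-3p: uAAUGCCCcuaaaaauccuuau
hsa-miR-1469: cUCGGCGCggggcgcgggcucc
hsa-miR-6090: gGGGAGCGaggggcggggc

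The region around MIR193A (chr17:31558488-31563308) was 4821 bp wide and 20277 bp from RAB11FIP4. Its deposited H3K27ac fold was 48.5 and 44.0 in Si1235 libraries, against 23.2 and 30.2 in NC1235 libraries, and its H2AZ fold was 22.7 and 22.2 against 14.3 and 16.4. At the MIR365A region (chr16:14306536-14311138) the H3K27ac fold was 35.9 and 32.8 in Si1235, against 18.8 and 21.1 in NC1235. Both arms were separate at both regions, but folds are not comparable between lists and no test was made. Other hairpin regions with separate arms went both ways. At MIR4785 the H3K27ac fold was lower in Si1235, with 20.75 and 16.5, against 42.87 and 40.03 in NC1235. At MIR4777 it was also lower, with 29.95 and 44.01 in Si1235, against 49.08 and 55.55 in NC1235. It was higher in Si1235 at MIR4279, MIR4645, MIR6124, MIR6080, MIR8078 and MIR3190. The MIR1469 region lies in NR2F2, which encodes an orphan nuclear receptor, and was covered by H2AZ peaks to 95.3% or more in all 4 libraries. The MIR6090 region lies in ETS1, which encodes a transcription factor, and H3K9ac peaks covered it completely in both arms.

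The regions were compact. Their median width was 1924 bp, with quartiles of 1252 and 2906 bp and a range of 285 to 23326 bp, and together they spanned 18.6 Mb. Distal regions without H2AZ were narrower, with a median of 1396 bp, and the 11769 gene-end regions with H2AZ in all lists had a median of 1941 bp. The 225 regions just past the distance limit, 2.5 to 3.0 kb from a gene end, had a median width of 1646 bp, and the 246 regions just short of it, at 2.0 to 2.5 kb, had 1809 bp. Of the 7873 regions, 1221 (15.5%) had a weakest H2AZ peak with a deposited −log10 q under 5, so a stricter threshold would have removed them. The 1645 distal regions with H2AZ in 3 lists, just outside the rule, had an H3K9ac peak in 82.4% in NC1235.

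The 6 widest regions had 16220 to 23326 bp. The widest (chr1:209394091-209417416) lay outside genes, 11404 bp from MIR205HG, the host gene of an epithelial microRNA, and the next lay in LMNA, which encodes the nuclear lamins A and C (chr1:156113368-156131306). After these came regions nearest TGFB2, a transforming growth factor (30117 bp away), and TBL1XR1, a corepressor subunit (386513 bp away, inside LINC00578). The remaining ones were nearest IKZF2, the lymphoid factor Helios (82669 bp away), and inside TP63, the master factor of basal epithelia. H2AZ took a small part of most of the 6 widest regions. At the widest its cover was 14.6% and 10.9% in Si1235, against 7.64% and 3.16% in NC1235. At LMNA it was 4.58% and 2.11% in Si1235, against 2.36% and 2.53% in NC1235. The region nearest IKZF2 had more, with 46.5% and 21.2% in Si1235, against 28.0% and 16.3% in NC1235.

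Within a region H2AZ usually formed a single, central peak. In 78.1% to 78.7% of regions, depending on the library, there was 1 H2AZ peak, and the strongest H2AZ summit lay a median of 148 and 170 bp from the strongest H3K27ac summit in Si1235, against 139 and 163 bp in NC1235. These gaps were within 200 bp in 53.1% to 56.2% of regions and over 500 bp in 24.1% to 25.2%. H2AZ peaks covered a mean of 57.2% and 48.7% of a region in Si1235, against 58.6% and 51.6% in NC1235. H3K27ac peaks covered 85.4% and 80.2% in Si1235, against 84.8% and 84.7% in NC1235.

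**Figure D1:**
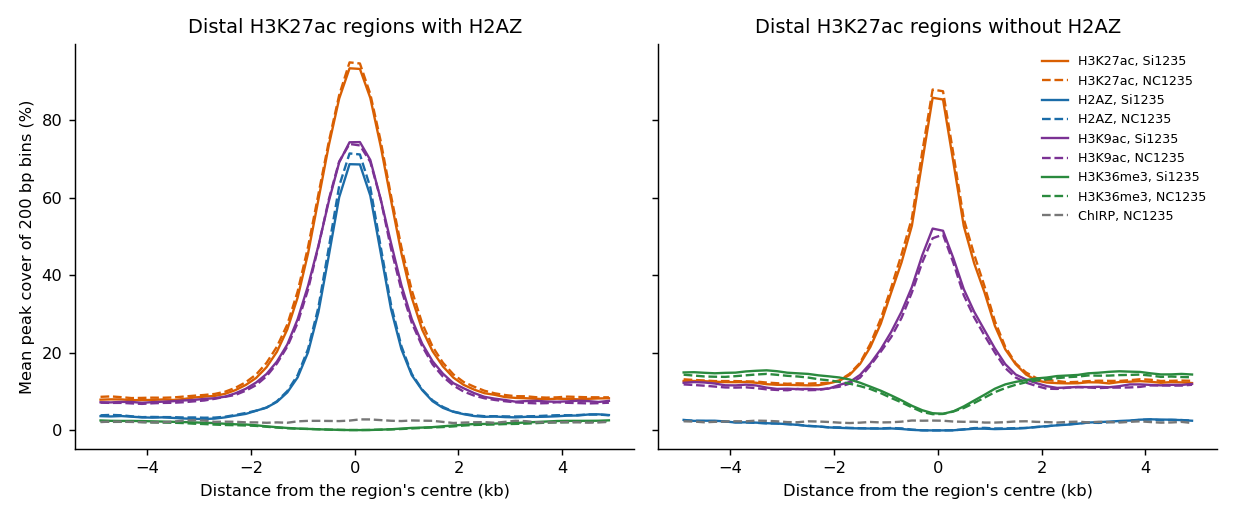
Mean percent of each 200 bp bin covered by peaks (y axis), by distance from the region's centre in kb (x axis), at distal H3K27ac regions with H2AZ (left) and without H2AZ in any list (right); solid lines are Si1235 and dashed lines NC1235, with replicates averaged. At the centre, H3K36me3 cover was 0.0831% in Si1235 and 0.0901% in NC1235 with H2AZ, against 4.35% and 4.20% without it.

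Where the H3K27ac regions carried H2AZ, H3K36me3 was rare. An H3K36me3 peak overlapped 1.70% and 1.28% of the regions in Si1235 replicates 1 and 2, and 1.49% and 1.12% in NC1235 replicates 1 and 2. At distal regions without H2AZ the shares were 16.5% and 15.2% in Si1235, and 15.7% and 13.1% in NC1235. In none of the 4 libraries did the 95% Wilson intervals of both classes overlap, the closest being 0.908% to 1.37% and 12.3% to 14.0% in NC1235 replicate 2. These intervals cover counting error only, and regions that share a gene are not independent.

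The classes also differed in where they lay. Of the regions with H2AZ, 38.2% overlapped a protein-coding gene, 12.7% a lncRNA gene only and 49.0% no gene, whereas 71.6% of distal regions without H2AZ overlapped a coding gene. Among regions inside coding genes alone, the share with an H3K36me3 peak was 4.02% and 2.99% in Si1235 and 3.62% and 2.59% in NC1235, against 22.4% and 20.6% in Si1235 and 21.4% and 17.9% in NC1235 without H2AZ. Leaving out regions within 2.5 kb of a listed start as well, it was 1.96% to 3.52% over the 4 libraries, against 17.9% to 22.3% without H2AZ.

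Both features changed step by step with the number of H2AZ lists that had a peak. From 0 to 4 lists, the share inside coding genes was 71.6%, 54.0%, 47.0%, 42.3% and 38.2%. The share with an H3K36me3 peak in Si1235 replicate 1 was 16.5%, 6.07%, 4.01%, 1.95% and 1.70%. H3K9ac went the other way, with 75.3%, 78.6%, 79.7%, 83.0% and 91.6% in Si1235. Regions with 1 to 3 lists were wider than those with none, with median widths of 1743 and 1396 bp. At like widths their H3K9ac shares in Si1235 were close. They were 56.6% against 54.4% under 1 kb and 78.0% against 78.4% from 1 to 2 kb. From 2 to 4 kb they were 93.0% against 93.8%, and at 4 kb and over 99.8% against 99.7%.

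**Figure D2:**
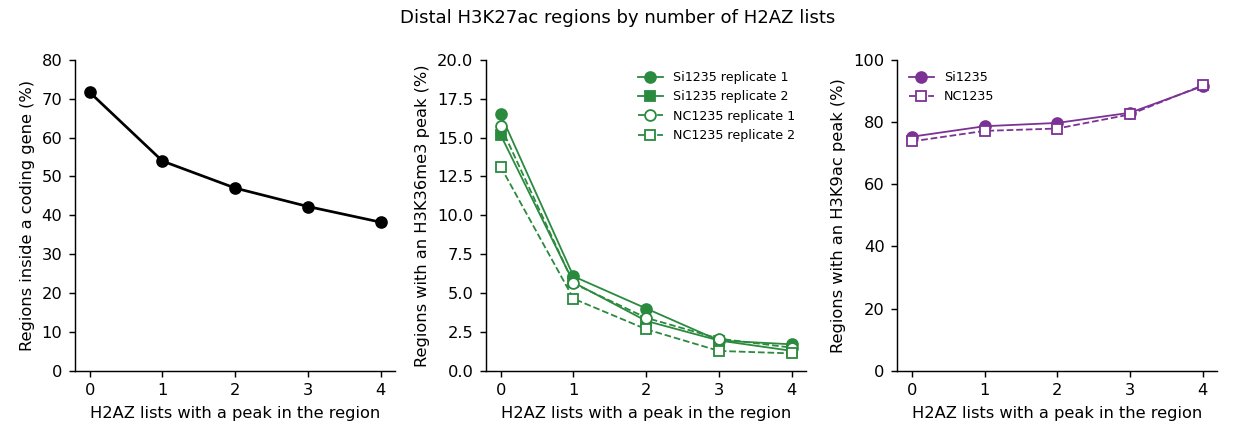
Percent of distal H3K27ac regions (y axes) inside a coding gene (left), with an H3K36me3 peak (middle, 4 libraries) and with an H3K9ac peak (right, 2 libraries), by the number of H2AZ lists with a peak in the region (x axes). In every H3K36me3 library the share falls as the number of lists grows, and in both H3K9ac libraries it is highest at 4 lists.

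H3K9ac accompanied nearly all of the regions. A peak overlapped 7208 regions (91.6%, 95% Wilson interval 90.9% to 92.1%) in Si1235 and 7228 (91.8%, 91.2% to 92.4%) in NC1235. Distal regions without H2AZ had 75.3% in Si1235 and 73.8% in NC1235, and gene-end regions with H2AZ had 99.1% and 99.0%. H3K27ac also ranked higher with H2AZ. The strongest H3K27ac peak of a region had a median percentile within its list of 62.0 and 62.8 in Si1235, and 62.3 and 65.3 in NC1235. At distal regions without H2AZ it was 42.4 and 42.4 in Si1235, and 41.4 and 45.4 in NC1235. The part of this difference in the H3K9ac shares was not tested. With 1 library per arm, a difference between arms has no replicate check.

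Width separated the classes unevenly. Under 1 kb, 81.8% of the regions with H2AZ had an H3K9ac peak in Si1235 and 82.2% in NC1235, against 54.4% and 52.7% of those without H2AZ. From 1 to 2 kb the NC1235 shares were 88.1% and 76.4%, and from 2 to 4 kb 97.2% and 92.9%. At 4 kb and over they were 99.8% and 99.7%, so the classes no longer differed beyond counting error. The share was 99.2% in NC1235 at the 654 regions within 2.5 kb of a listed start and 91.2% at the 6764 farther away.

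H3K9ac had no single order with the extent of H2AZ. Over regions with a mean H2AZ cover under 25%, of 25% to 50%, of 50% to 75% and of 75% or more, H3K9ac covered 60.4%, 55.7%, 58.0% and 78.4% of the region in Si1235, and 57.8%, 53.7%, 58.1% and 79.4% in NC1235. The share of regions with an H3K9ac peak in Si1235 was 96.6%, 91.4%, 88.2% and 92.5%. H3K9ac cover was thus highest where H2AZ cover was highest, and the share with a peak where H2AZ cover was lowest. Median width fell over the 4 classes, from 3627 bp in the lowest to 1078 bp in the highest, and its part in these values was not tested.

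A ChIRP peak overlapped 1242 regions (15.8%, 95% Wilson interval 15.0% to 16.6%). Shifting the regions by 50 kb gave 13.7% upward and 14.0% downward, so most of this share was also found in the neighbouring sequence. The share rose with width, from 5.85% under 1 kb through 12.1% and 18.8% to 30.9% at 4 kb and over. At the same widths, distal regions without H2AZ had 5.67%, 11.7%, 16.8% and 31.7%. The intervals overlapped in every width class, and over all widths the 15.8% stood against 12.1% without H2AZ.

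**Figure D3:**
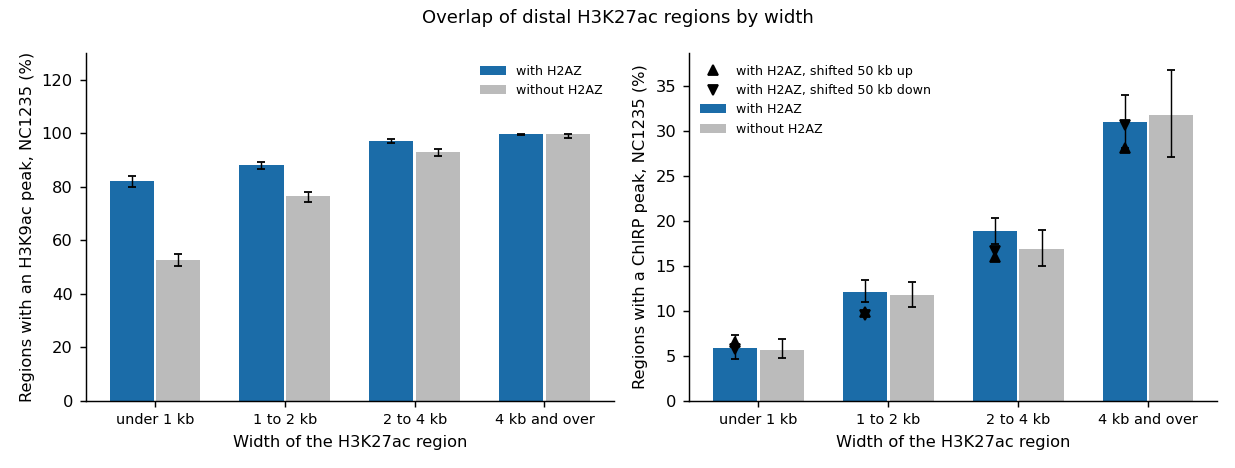
Percent of distal H3K27ac regions with an H3K9ac peak in NC1235 (left) and with a ChIRP peak (right), by width of the region, for regions with H2AZ (blue) and without it (grey); bars show shares, error bars 95% Wilson intervals, and triangles the share after shifting by 50 kb. The gap in H3K9ac is widest under 1 kb, at 82.2% and 52.7%, while ChIRP shares rise with width in both classes.

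The regions with most bases under ChIRP peaks were 3376 bp from GRHL2-DT (chr8:101449709-101457582, 1361 bp), 285122 bp from ZP4, the nearest coding gene (chr1:238176044-238180758, 1265 bp), and in LMNA (1246 bp). GRHL2, the coding gene nearest the first, encodes an epithelial transcription factor. Their highest deposited ChIRP folds were 92.6, 89.0 and 17.5. Only 1 ChIRP library exists here, so these values have no replicate and no comparison between arms.

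The strongest regions by H3K27ac differed from the strongest by H2AZ. By the lowest H3K27ac fold over 4 libraries, the leading region was at SLC3A2 (chr11:62879460-62884484), which encodes the heavy chain of amino acid transporters. This region held a start listed in the promoter table. Its H3K27ac fold was 176 and 158 in Si1235, against 141 and 163 in NC1235, while H2AZ covered 11.4% and 7.08% of it in Si1235, against 24.5% and 10.8% in NC1235. It was also one of the few with broad H3K36me3, whose cover was 60.1% and 62.6% in Si1235, against 64.8% and 66.6% in NC1235. The other 5 were nearest LIPC, MYC (423214 bp away), EXT1, NDUFAF6 and IRX2. Among these, the IRX2 region (chr5:2778550-2783257), next to a homeobox gene, was broadly covered by H2AZ, with 85.6% and 72.8% in Si1235, against 94.4% and 81.6% in NC1235.

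The leading regions by H2AZ fold were nearest TRIM7, CHD1L, HJV, TRIM41, NPEPL1 and RREB1. Of these, the CHD1L region held a listed start and the NPEPL1 region lay 58 bp from one. H2AZ covered the TRIM7 region (chr5:181183750-181185422) completely in all 4 libraries, as it did the RREB1 region (chr6:7260741-7262067). RREB1 encodes a zinc-finger factor of RAS signalling. The lowest H2AZ cover at any of the 6 was 81.0%, in Si1235 replicate 2 at CHD1L. H3K9ac covered at least 99.0% of each in both arms, and none had an H3K36me3 peak.

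The nearest protein-coding genes numbered 4328 of 19126 (22.6%), of which 2679 had 1 region, 1408 had 2 to 4 and 241 had 5 or more. The most were at GLIS3 with 19, MYC and TENM4 with 18 each, KLF5 and RUNX1 with 15 each and EIF3H with 14. GLIS3 encodes a Krüppel-like zinc-finger factor, and 15 of its regions were inside the gene; all 19 lay within chr9:3732506-4294581. MYC, KLF5 and RUNX1 encode transcription factors of growth and lineage. All 18 regions nearest MYC lay outside it, within chr8:127576025-128429568 and up to 684394 bp away, and a further 15 distal regions nearest MYC had no H2AZ. At GLIS3 only 1 distal region had no H2AZ. An H3K9ac peak was present at 17 of the 19 GLIS3 regions in Si1235 and at all 19 in NC1235, and a ChIRP peak at 3.

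Grouping regions within 12.5 kb of each other gave 6620 clusters, of which 5659 held 1 region and 16 held 5 or more. The largest held 10 regions over 67695 bp nearest AZIN1 (chr8:102715698-102783392), which encodes an inhibitor of the antizyme that degrades ornithine decarboxylase. The next held 8 regions over 61872 bp nearest RBM47, an RNA-binding protein of epithelia. Clusters of 6 lay nearest NEDD9, BNC2, YWHAZ, ZNF213, NID1, EML4, CTSC and TP63. The regions made up 43.3% of distal regions genome-wide, and by chromosome this ranged from 30.0% on chromosome 10 to 53.5% on chromosome 21.

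Gene lists chosen with earlier results of these data known were counted against the 22.6% of all coding genes that were nearest to a region. Of 17 stem and progenitor factors, 13 were, with 95 regions, led by MYC, KLF5 and RUNX1. Of 28 luminal and epithelial genes, 15 were, with 47 regions, led by TFAP2A and TFAP2C, which encode AP-2 factors, with 8 each, and TRPS1 with 6. Of 28 basal genes, 11 were, with 32 regions, of which 14 were nearest TP63. Distal regions without H2AZ were nearest to 15.4% of all coding genes. They were nearest to 11 stem and progenitor, 12 luminal and epithelial and 11 basal genes of the same lists. Closeness to these lists was thus not particular to the regions with H2AZ. The spacing and length of genes were not matched between lists, so these counts describe and do not test.

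Mesenchymal genes had 10 of 20 with 19 regions, led by ZEB2 with 4. HER2 and downstream signalling genes had 11 of 27 with 30 regions, led by PIK3R1, a regulatory subunit of PI3-kinase, with 9. Cell cycle and p53 target genes had 9 of 25 with 18 regions, of which 6 were nearest CDKN2B, which encodes a kinase inhibitor. AP-1 genes had 5 of 15 with 10 regions. Interferon and nucleic acid response genes had 7 of 31 with 9 regions, close to the share over all genes. None of the 27 replication licensing and firing genes was the nearest gene of a region, although 25 of them had an H3K27ac region at a gene end. Markers of other cell types were 1 of 16 for immune cells, with 4 regions nearest PTPRC, and 6 of 11 for endothelial cells, with 10 regions. For distal regions without H2AZ, the genes were 8 mesenchymal, 7 HER2 signalling, 6 cell cycle and p53, 4 AP-1 and 4 interferon. They were also 1 replication, 1 immune and 4 endothelial. PTPRC encodes the phosphatase that marks leukocytes, and 4 H3K27ac regions present in all lists lay in or within 2.5 kb of it, with a highest deposited fold of 72.0 and 71.7 in Si1235, against 55.6 and 80.7 in NC1235.

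Around LINC01235 (chr9:13406380-13431329) there were 20 regions within 1 Mb, and 1 lay inside the gene (chr9:13427705-13428241). That region was 537 bp wide. H2AZ covered it by 100.0% and 100.0% in Si1235, against 100.0% and 96.8% in NC1235, and H3K27ac by 95.9% and 92.7% in Si1235, against 83.2% and 99.6% in NC1235. H3K9ac covered it completely in both arms, and it had no ChIRP peak. None of the 6 regions closest to the gene had a ChIRP or H3K36me3 peak. Among them, the one inside MPDZ (chr9:13139155-13140330), a scaffold protein of tight junctions, had an H3K27ac cover of 21.3% and 69.6% in Si1235, against 100.0% and 94.6% in NC1235, and the arms did not overlap there. The 12 listed neighbours of LINC01235 on 9p included 8 nearest to 34 regions, with 11 at BNC2, 9 at NFIB and 6 at LURAP1L.

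Between the arms, no region passed the test for a change in cover. Cover is the percent of a region under peaks, tested by limma over all 50200 merged regions with Benjamini-Hochberg adjustment. For H3K27ac, 0 of 7873 regions were called higher and 0 lower in Si1235 at an adjusted p under 0.05, with percent called 0 in each direction over all regions tested. At an unadjusted p under 0.05 there were 779 higher and 1177 lower, in all 24.8%, against 25.7% over all regions. These counts were 924 higher and 974 lower with quantile normalization, so the excess of lower regions was smaller there. It was absent without NC1235 replicate 1 and turned round without NC1235 replicate 2, with median differences of −1.32 and −1.25 points. The excess was smaller without Si1235 replicate 2 and larger without Si1235 replicate 1, with medians of 0.77 and −3.45 points. In 2064 regions both Si1235 values lay above both NC1235 values (26.2%, against 23.6% over all regions), and in 2608 both lay below (33.1%, against 26.9%). Over the 32603 regions with a peak in all 4 H3K27ac lists, which share that part of the rule, the shares were 27.6% above and 28.5% below. Counting only separate arms whose means differed by at least 20 points, 9.87% of the 7873 regions were higher and 14% lower. These shares were 12.7% and 16.9% over all regions and 10.7% and 13.1% over those in all 4 lists. By the rule each of the 7873 regions has a peak in every H3K27ac and H2AZ list, so a complete loss or gain in a library cannot appear among them.

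The median difference in H3K27ac cover, Si1235 minus NC1235, was −1.17 percentage points, and it was 0.70 between replicates 1 and −3.53 between replicates 2. The median absolute difference between arms was 10.6 points, and it exceeded the gaps between replicates, of 7.66 points in Si1235 and 6.01 points in NC1235. Between single libraries of different arms the median gap was 11.0 to 12.3 points over the 4 pairs. The 654 regions within 2.5 kb of a listed start had a median absolute difference of 7.31 points, and the 6764 farther away 10.8 points.

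The largest H3K27ac differences among regions with separate arms are named although none passed. The region in VIPR2 (chr7:159077806-159079340), which encodes a receptor of vasoactive intestinal peptide, had an H3K27ac cover of 96.7% and 99.2% in Si1235, against 15.6% and 25.7% in NC1235. Its H2AZ cover went the opposite way, with 27.9% and 17.0% in Si1235, against 93.0% and 49.8% in NC1235. The H3K27ac difference was 77.3 ± 12.4 points (SE, limma, 2 libraries an arm, adjusted p = 0.0512). Near CTR9, a subunit of the PAF1 elongation complex (chr11:10735474-10736828), H3K27ac cover was 99.7% and 91.1% in Si1235, against 19.2% and 20.9% in NC1235. Near CLPTM1L (chr5:1312444-1313674) it was 99.8% and 92.1% in Si1235, against 21.4% and 21.7% in NC1235. The limma adjusted p was 0.0512 at both.

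The 3 largest in the other direction were all on chromosome 8. The region nearest PKIA, an inhibitor of protein kinase A (chr8:78205812-78208144), lay 308196 bp from that gene. Its H3K27ac cover was 17.0% and 10.6% in Si1235, against 96.4% and 99.1% in NC1235. The difference was −83.9 ± 12.4 points (SE, limma, adjusted p = 0.0512). At the region 67338 bp from GRHL2 (chr8:101423470-101425101) it was 14.7% and 20.6% in Si1235, against 100.0% and 95.6% in NC1235, while H2AZ cover was 82.6% and 69.2% against 86.9% and 66.7%. The arms were thus separate for H3K27ac and overlapped for H2AZ. At the region in OXR1, an oxidation resistance gene (chr8:106491905-106493207), H3K27ac cover was 23.1% and 18.0% in Si1235, against 97.1% and 100.0% in NC1235, and the limma adjusted p was again 0.0512.

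For H2AZ, 0 of the 7865 regions tested were called in either direction by limma, with percent called 0 over the 31021 regions tested. At an unadjusted p under 0.05 there were 212 higher and 376 lower, in all 7.48%, against 8.83% over all regions. This lean turned round with quantile normalization (356 higher, 310 lower), and its direction otherwise depended on the library left out. It turned round without Si1235 replicate 2 and without NC1235 replicate 1, where the median differences were 1.52 and 1.05 points. The lean was larger without Si1235 replicate 1 and without NC1235 replicate 2, with medians of −4.26 and −3.43 points. In the fit reported the median was −0.61 points. Both Si1235 values lay above both NC1235 values in 1139 regions (14.5%, against 14.6%) and below in 1623 (20.6%, against 16.3%). Between single libraries of different arms the median gap in H2AZ cover was 7.79 to 10.1 points over the 4 pairs, against 8.75 points between Si1235 replicates and 7.81 points between NC1235 replicates, so these ranges overlapped.

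At the region in ST6GALNAC5, a sialyltransferase gene (chr1:76918633-76919157), H2AZ cover was 100.0% and 100.0% in Si1235, against 45.0% and 33.7% in NC1235 (difference 60.7 ± 6.68 points, SE, limma adjusted p = 0.178). This difference was 10.7 points with peaks of −log10 q of at least 5 and 11.9 points with equal numbers of top peaks. At FTO, which encodes an RNA demethylase (chr16:53952190-53953131), it was 84.6% and 85.4% in Si1235, against 30.0% and 43.5% in NC1235. Its H3K27ac cover was 86.4% and 98.9% in Si1235, against 41.6% and 42.9% in NC1235. In VXN (chr8:66512165-66513180) H2AZ cover was 25.1% and 26.5% in Si1235, against 79.6% and 95.8% in NC1235, a difference of −61.9 ± 8.70 points (SE, limma adjusted p = 0.242). H3K27ac cover there was 43.3% and 24.6% in Si1235, against 78.3% and 100.0% in NC1235. The arms are apart at each of these, and none passed the test. Further differences were 56.5 points nearest GPM6A, which was 35.9 without Si1235 replicate 1, and −63.8 points nearest KCNRG. The first of these regions lay 212301 bp from GPM6A, and the second lay inside DLEU1, 208835 bp from KCNRG.

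**Figure D4:**
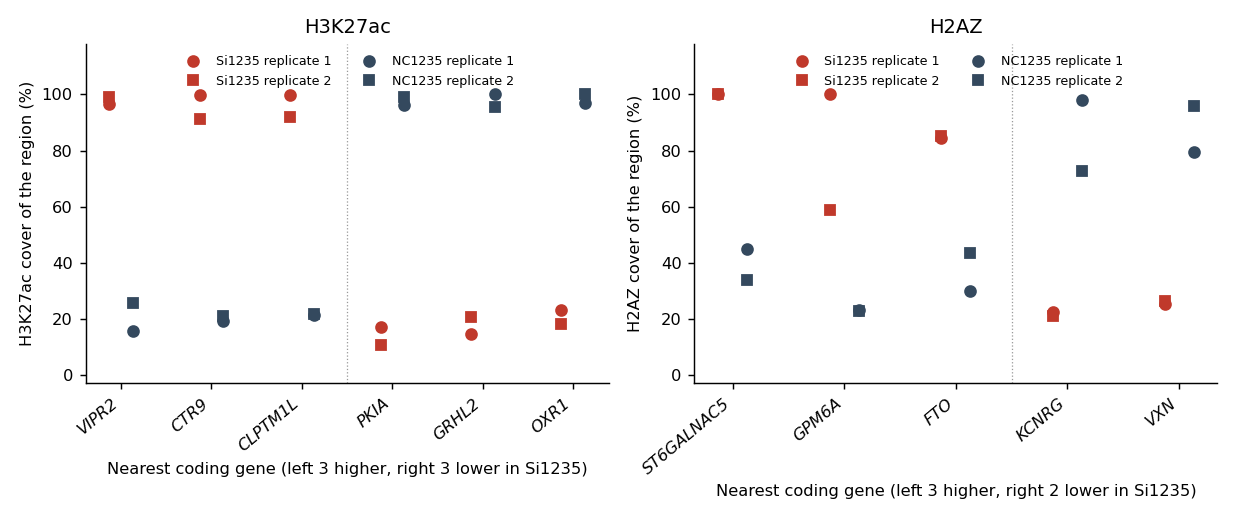
Percent of the region covered by H3K27ac (left) and H2AZ peaks (right) in each library (y axes) at regions among those with the largest separate differences, named by nearest coding gene (x axes); red points are Si1235 and dark points NC1235, circles replicate 1 and squares replicate 2. At VIPR2 the Si1235 libraries sit at 96.7% and 99.2%, above 15.6% and 25.7% in NC1235, and at PKIA they sit at 17.0% and 10.6%, below 96.4% and 99.1%.

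H3K36me3 could be tested at 87 regions only, and 0 of them were called by limma in either direction; over the 3606 regions tested, percent called was 0 higher and 0.0555 lower. At an unadjusted p under 0.05 there were 6 higher and 6 lower, against 10.1% of all regions tested. Both Si1235 values lay above both NC1235 values in 22 regions (25.3%, against 20.8%) and below in 18 (20.7%, against 12.9%). The region in HERC6, an interferon-induced ubiquitin ligase gene (chr4:88382099-88383542), had H3K36me3 over 23.5% and 29.4% in Si1235, against 0% and 0% in NC1235 (difference 26.5 ± 3.05 points, SE, limma adjusted p = 0.202). The region in NDC80, a kinetochore gene (chr18:2588196-2591028), had 34.1% and 41.7% in Si1235, against 88.8% and 74.8% in NC1235 (difference −44.0 ± 10.0 points, limma adjusted p = 0.375; −27.7 points with peaks of −log10 q of at least 5). Both sit inside genes. The other largest differences were 21.7 points in RCC1, 19.5 in TGM1, −21.2 in P3H2 and −20.7 in FBXO32. Leaving out 1 library moved the differences at RCC1, P3H2 and FBXO32 by over 1.5 times. RCC1 had 13.9 points without Si1235 replicate 1. P3H2 had −32.6 without Si1235 replicate 1 and −9.83 without Si1235 replicate 2. FBXO32 had −5.64 without NC1235 replicate 1 and −35.8 without NC1235 replicate 2. At TGM1 the H3K36me3 cover was 29.0% and 9.98% in Si1235, against 0% and 0% in NC1235. Without Si1235 replicate 1 that region fell under the minimum mean cover of 5%, so no difference was fitted.

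For H3K9ac, 6909 regions had a peak in both arms, 299 in Si1235 alone, 319 in NC1235 alone and 346 in neither. Mean cover was 62.6% in Si1235 and 61.8% in NC1235. Cover differed by at least 50 points in 148 regions with more in Si1235 and in 152 with less. No share over all merged regions is given beside these H3K9ac counts. They therefore cannot be read as particular to the regions described here. Regions with neither had a median width of 1113 bp, against 2072 bp for those with both.

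The H3K27ac difference was graded by distance from genes. The median difference was 0.54 points for the 2644 regions 2.5 to 10 kb from a gene end, −1.33 for the 3847 at 10 to 50 kb, −4.72 for the 1280 at 50 to 200 kb and −5.21 for the 102 beyond. Within replicates 1 these medians were 2.37, 0.41, −2.49 and −1.76, and within replicates 2 they were −1.34, −3.75, −6.87 and −6.89. The order was thus kept over the first 3 classes in both. Distal regions with fewer or no H2AZ lists had medians of −0.61, −2.50, −6.16 and −12.9, a gradient of the same direction. H2AZ cover had medians of 0, −0.74, −1.89 and −4.74 over the same classes.

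Chromosomes differed as well. The median H3K27ac difference was highest on chromosome 19, at 3.88 points (4.85 and 2.91 within replicates), followed by chromosomes 17 and 18, and lowest on chromosome 5, at −4.40 points. Both within-replicate medians were above 0 on chromosomes 17, 19 and 22. The scaling of the NC1235 H3K27ac lists moves with the arm, base composition was not measured, and the part of either in this pattern was not tested.

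**Figure D5:**
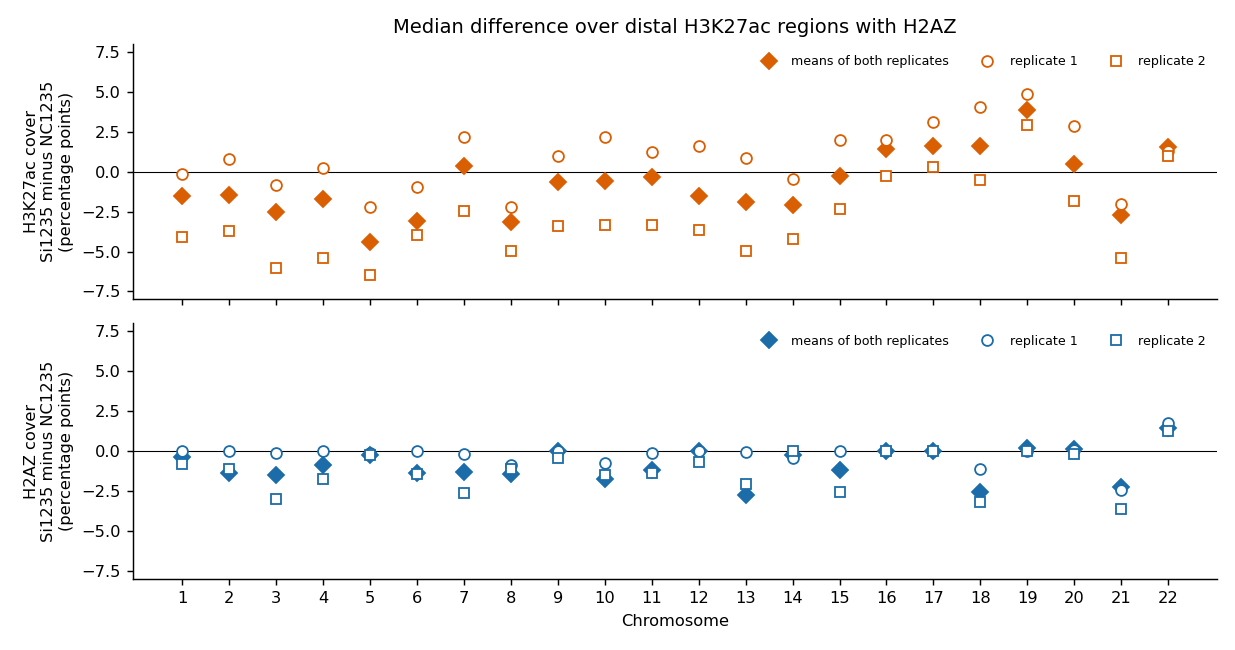
Median difference in H3K27ac cover (top) and H2AZ cover (bottom) between Si1235 and NC1235, in percentage points, over the regions of each chromosome (x axis); filled diamonds compare the means of both replicates, open circles replicates 1 and open squares replicates 2. H3K27ac medians run from −4.40 on chromosome 5 to 3.88 on chromosome 19, and H2AZ medians stay closer to 0.

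Genes with many regions showed the spread within a neighbourhood. At EIF3H, which encodes a translation initiation factor subunit, 13 of 14 regions had an H3K27ac difference below 0, with a median of −19.6 points and a range of −70.0 to 3.02. At TENM4, a teneurin gene, 15 of 18 were below 0, with a median of −12.9. At MYC 11 of 18 were above 0, with a median of 3.68 and a range of −37.3 to 36.7. The lowest limma adjusted p in these groups was 0.0512, at EIF3H, so no region passed. H2AZ medians at the same genes were −4.24 at EIF3H, 2.78 at TENM4 and 0.38 at MYC.

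By gene list the H3K27ac medians can be set beside −1.17 points over all 7873 regions, of which 53.5% were below 0. The 32 regions nearest basal genes had a median of −11.1 points, with 23 below 0, and −8.73 and −15.9 within replicates. The 34 regions nearest the 9p neighbours had −6.39, with 23 below 0. Lists of other cell types had medians of similar size on fewer regions, at −7.20 for 19 mesenchymal, −7.06 for 4 immune and −4.55 for 10 endothelial regions. The 95 regions nearest stem and progenitor factors had −3.08, with 56 below 0, and the 47 nearest luminal genes −2.17, with 26 below 0. The 30 nearest HER2 signalling genes had 4.16, with 12 below 0, and their within-replicate medians of 4.91 and −6.54 differed in sign. Medians above 0 were also found for AP-1 (2.97, 10 regions), interferon (4.15, 9 regions) and cell cycle and p53 target genes (1.84, 18 regions). No region of any list passed the limma test.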

How the data were processed

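Chromatin of HCC1954 cells was profiled in 17 samples; 15 peak lists were used, 1 per library, and no list of the 2 inputs was used. The submitters' processing notes name hg38, Bowtie2 2.2.9, MACS2, HTSeq 2.0.3 and DESeq2 1.22.2, without a role for each. Peak-calling settings and the control are not stated there. The deposited lists give for each peak a fold enrichment, a linear ratio over local background, and −log10 of its p-value and of its q-value, of which none lay below 2.00029.

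Members and gene lists were chosen with earlier results of these data known. Peaks of the 4 H3K27ac lists that overlapped or touched were merged. Overlap needed 1 bp. Cover, the percent of a region under peaks of a library, was tested with limma 3.58.1 (R 4.3.3) with a trend. The test was on regions with a mean cover of at least 5%, adjusted over all of them. The fit was also run on simulated data with added differences and a smaller spread than observed. That run gives no power or error rate for these libraries. Named regions had the largest differences with separate arms, the largest width, folds or ChIRP overlap, or lay nearest LINC01235; 1 of them is not reported here. Nearest genes were read from RefSeq annotation (GRCh38.p14, the assembly of hg38). Promoter windows were not used for chromosome 8. Replicate numbers were not used as pairs in the limma fit reported. Alternatives were other distances, overlaps, thresholds, merging, normalization and left-out libraries. Pileups were solved on the 1500 peaks a list with the lowest −log10 p. A pileup counted as whole when a whole number gave the deposited −log10 p within 0.002. Motifs around summits were not searched, since no genome was used here. Figures were drawn with matplotlib 3.10.9.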

Additional observations from a re-analysis of the deposited data

How the results depend on the processing

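The number of regions was 8690 and 6776 with gene-end limits of 1.0 and 5.0 kb, 7855 with an H2AZ overlap of 100 bp, 6354 with −log10 q of at least 5, 7133 with equal numbers of top peaks, 7770 with gaps of 500 bp merged, 8183 to 8944 without 1 library, and 7219 without regions near a listed start, an alternative chosen after seeing the data. H3K27ac calls (higher, lower) were 0 and 0 in the limma fit reported; they were 34 and 63 with no trend (0.432% and 0.80%, against 2.41% and 4.06% over all regions tested), 16 and 1 with quantile normalization (0.203% and 0.0127%, against 1.45% and 2.01%), which moved the median difference over all regions from −0.56 to 0.57 points, and 0 to 2 and 0 to 3 without 1 library, where up to 8.91% and 11.2% of all regions were called. The replicate block gave 140 and 306 (1.78% and 3.89%, against 4.46% and 7.63%). Deviations of same-numbered libraries correlated across regions by only 0.0295 for H3K27ac, 0.0577 for H2AZ and 0.0382 for H3K36me3. A shift shared by all regions does not enter this correlation. H2AZ peaks covered 42.9 and 43.6 Mb in replicates 1 of Si1235 and NC1235, against 34.3 and 36.1 Mb in replicates 2. For H3K36me3 these values were 137 and 140 Mb, against 121 and 115 Mb. For H3K27ac they were 68.0 and 67.2 Mb, against 63.6 and 67.6 Mb. Whether the numbers pair the libraries was thus not settled. H2AZ calls were 1 and 3 at a mean cover of at least 20%, 0 and 3 with no trend, and 0 to 39 and 0 to 77 without 1 library, the most without NC1235 replicate 2 (0.496% higher, against 0.803% over all regions) and without Si1235 replicate 1 (0.980% lower, against 1.26%). At a mean cover of at least 20% the H2AZ shares called (higher, lower) were 0.0139% and 0.0417%, against 0.206% and 0.294% over all regions tested. With no trend they were 0% and 0.0381%, against 0.190% and 0.451%. H3K36me3 calls were 0 and 0 with the replicate block, no trend and quantile normalization. With no trend, 0.499% and 0.2496% of all regions tested were called higher and lower for H3K36me3. H3K36me3 calls were not 0 in every fit without 1 library, where an arm holds 1 library only. Without 1 library the median H3K36me3 difference ran from −1.05 to 6.21 points, against 1.56 in the fit reported. Why the calls moved was not tested. H3K9ac overlap was 86.6% in Si1235 and 85.9% in NC1235 at −log10 q of at least 5; ChIRP overlap was 14.7% at 100 bp and 13.7% and 14.0% after shifts. Of the 18 differences taken by the naming rule none changed sign, and 8 passed in at least 1 alternative. The lists give no depth, so small losses were not detectable where peaks stayed above the caller's threshold.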
